A study of Mus musculus with 4 samples.

Results

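Transcripts of 34 genes of the hypoxia response and of glycolysis were followed, out of 32285 genes counted, in malignant cells and leukocytes of mouse brain tumours. The genes were chosen by symbol as targets of the hypoxia-inducible factors (HIF) and enzymes of glycolysis, and all of them were found. No measured value entered that rule, but the choice was made with earlier results of these data known. By role, 20 were taken as HIF-regulated genes (oxygen sensing, mitophagy, secreted factors, glucose and lactate transport, control of glycolytic flux, collagen hydroxylation and chromatin) and 14 as the enzymes that carry out the glycolytic steps. The symbol Aldoa stood on 2 rows of the count tables, so that 35 rows carried a member's symbol. Aldolase A was read from ENSMUSG00000030695. The other row, ENSMUSG00000114515, held 73 and 71 UMIs (unique molecular identifiers, which count captured transcripts) in vehicle and SCDi malignant cells and was left apart.

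The tumours grew from EO771, 1 mammary cancer line of mouse origin tagged with GFP, in the brains of female C57BL/6 mice that received vehicle or SCDi for 14 days. The series title names SCD, stearoyl-CoA desaturase, which makes monounsaturated from saturated fatty acids; the compound, its dose and the age of the mice were not given in the sources used here. Brains of 3 mice per treatment were pooled before sorting for DAPI-negative cells, either GFP+ and CD45- (tumour) or CD45+ and GFP- (immune), which gave 4 droplet libraries of single-cell 3' RNA counts, 1 per treatment and sort. All mice carried the same tumour line, and with 1 pooled library per group there was no replicate and no test: each difference describes a pair of libraries, in which treatment, mice and library cannot be told apart.

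HIF works as an oxygen gauge. Prolyl hydroxylases mark its alpha subunit for destruction while oxygen is plentiful, and at low oxygen the subunit persists, pairs with ARNT and binds short DNA motifs at its target genes. These targets raise glucose uptake, lactate export, vessel growth and removal of mitochondria. Glycolytic enzymes are HIF targets too, but they are also made in well-oxygenated cells, since nearly every cell uses glycolysis, and Gapdh is often used as a housekeeping gene.

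The libraries held 6777 to 9034 barcodes and 135851178 to 329888529 UMIs, and 6453 to 8895 barcodes were kept. Malignant cells were gated by a UMI of Krt8, a keratin of simple epithelia, and leukocyte types by counts of their markers, which left 12 types with enough cells: malignant cells (7227 vehicle, 8524 SCDi) and 11 leukocyte types of 52 to 1796 cells per library. Krt18, the partner of Krt8 that the malignant gate did not use, had a UMI in 16.8% and 18.8% of malignant cells. The 5 leukocyte markers summed to 2.40 and 3.68 CPM (UMIs per 1000000 UMIs) in malignant cells, with Ptprc (CD45) at 0 in the SCDi library, and the 6 endothelial markers to 71.2 and 74.6 CPM, sums that the gate itself held down. Cd79a, a B cell gene that the malignant gate did not use, stood at 7.07 and 8.89 CPM, with a UMI in 1445 of 7227 and 1886 of 8524 malignant cells. Pairs of libraries shared 9 to 23 barcode sequences.

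HIF binds DNA at the core ACGTG or GCGTG, and 6 promoters that each hold that core are given here as examples. The first 4 belong to HIF-regulated genes that were lower in the SCDi malignant cells by at least 20% (Bnip3, Adm, Ankrd37 and Slc2a1), and the last 2 to enzymes that differed less (Ldha and Gapdh). Each line gives the 250 bases before the annotated start, 5′ to 3′ on the strand of the gene, from RefSeq on GRCm38.p6, with each ACGTG or GCGTG on either strand (CACGT or CACGC when read on the other) in capitals. The windows are chr7:138909507-138909756 (minus strand) for Bnip3, chr7:110627407-110627656 (plus strand) for Adm, chr8:45999851-46000100 (minus strand) for Ankrd37, chr4:119108495-119108744 (plus strand) for Slc2a1, chr7:46845554-46845803 (plus strand) for the farther upstream of the 2 Ldha windows and chr6:125165774-125166023 (minus strand) for Gapdh.
Bnip3: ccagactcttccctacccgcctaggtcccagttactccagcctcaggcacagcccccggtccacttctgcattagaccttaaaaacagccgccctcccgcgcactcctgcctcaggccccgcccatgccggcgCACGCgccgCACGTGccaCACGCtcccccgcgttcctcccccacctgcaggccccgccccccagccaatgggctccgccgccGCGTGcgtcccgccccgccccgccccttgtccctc
Adm: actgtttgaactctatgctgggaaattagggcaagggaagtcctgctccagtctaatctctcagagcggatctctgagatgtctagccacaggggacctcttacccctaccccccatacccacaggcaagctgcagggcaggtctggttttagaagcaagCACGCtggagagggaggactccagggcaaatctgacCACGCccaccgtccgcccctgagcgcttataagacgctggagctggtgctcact
Ankrd37: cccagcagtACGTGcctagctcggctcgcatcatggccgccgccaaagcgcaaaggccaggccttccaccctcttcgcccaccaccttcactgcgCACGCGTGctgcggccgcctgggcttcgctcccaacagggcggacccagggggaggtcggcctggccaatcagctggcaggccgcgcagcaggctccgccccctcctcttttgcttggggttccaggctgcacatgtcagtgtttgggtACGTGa
Slc2a1: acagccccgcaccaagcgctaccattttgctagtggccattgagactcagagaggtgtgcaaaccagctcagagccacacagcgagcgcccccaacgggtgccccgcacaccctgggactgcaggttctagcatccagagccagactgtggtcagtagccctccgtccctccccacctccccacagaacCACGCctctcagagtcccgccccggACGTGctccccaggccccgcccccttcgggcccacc
Ldha: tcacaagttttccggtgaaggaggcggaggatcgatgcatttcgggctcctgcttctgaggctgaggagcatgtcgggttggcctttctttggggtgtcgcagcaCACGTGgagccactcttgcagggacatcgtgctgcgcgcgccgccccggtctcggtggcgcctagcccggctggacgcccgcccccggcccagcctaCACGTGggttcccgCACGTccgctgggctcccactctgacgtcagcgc
Gapdh: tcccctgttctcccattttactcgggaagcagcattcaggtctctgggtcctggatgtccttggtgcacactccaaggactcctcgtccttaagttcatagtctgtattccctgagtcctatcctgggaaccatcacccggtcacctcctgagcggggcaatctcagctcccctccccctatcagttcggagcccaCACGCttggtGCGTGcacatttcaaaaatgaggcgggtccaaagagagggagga

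The Bnip3 and Ldha windows each hold 5 matches, Ankrd37 holds 4, and Adm, Slc2a1 and Gapdh hold 2 each. In CACGTG the core and its complement overlap, and such a hexamer counts as a match on each strand. RefSeq windows were found for 31 of the 34 members (not for Ndrg1, Bnip3l and Slc2a3), and 17 of 17 HIF-regulated genes and 12 of 14 enzymes have a match in at least one of their windows. In the first window alone, the one farthest upstream, 15 of the 17 and 9 of the 14 have a match. Over all 27025 genes with a window, 41.5% have a match in at least one window, and 38.6% of all 32851 windows hold a match. ACGTG alone is found for 12 of the 17 (70.6%), for 6 of the 14 enzymes (42.9%) and for 18.5% of all genes. The members' windows are also richer in CG, which both cores contain: the median is 16.5 CG per window for HIF-regulated genes and 15 for enzymes, against 6 over all windows. The Ankrd37, Ldha and Gapdh windows lie inside longer gene bodies of the GENCODE annotation, which begin farther upstream. A match is a run of letters and not a binding site, and a window without one says nothing of the factor. In malignant cells Ldha and Bnip3, with 5 matches each, stood at 1550 and 1429 CPM and at 30.2 and 12.8 CPM in vehicle and SCDi. Mxi1, with 0 matches in the first of its 3 windows but a match in another, stood at 86.2 and 62.3 CPM. A relation between matches and the difference was not tested.

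In malignant cells the question was how far transcripts of the hypoxia response differed between SCDi and vehicle. UMIs were summed over cells and scaled to CPM, and a ratio is the log2 of SCDi over vehicle with its 95% counting interval. A gene was compared if it reached 5 CPM in vehicle or SCDi, which kept 9478 genes, 19 of the 20 HIF-regulated genes (all but Car9) and 13 of the 14 enzymes (all but Aldoc). A gene was past the limit if it was at least 20% lower or at least 25% higher in SCDi, which is the same distance on the log2 scale. Of the 19, 17 were lower in the SCDi library and 9 of them past the limit, where 6.57% of all genes were lower past the limit and 58.4% lower at all. Higher past the limit were 0 of the 19 (3.41% of all genes). The median log2 ratio of the 19 was -0.32, against -0.04 over all genes compared. Together they took 1566 CPM in vehicle and 1250 CPM in SCDi. Among the 9 past the limit Bnip3l was nearest to it, with a vehicle level 1.33 times that of SCDi, and Egln3 was the nearest gene that did not reach it, at 1.24 times.

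**Figure D1:**
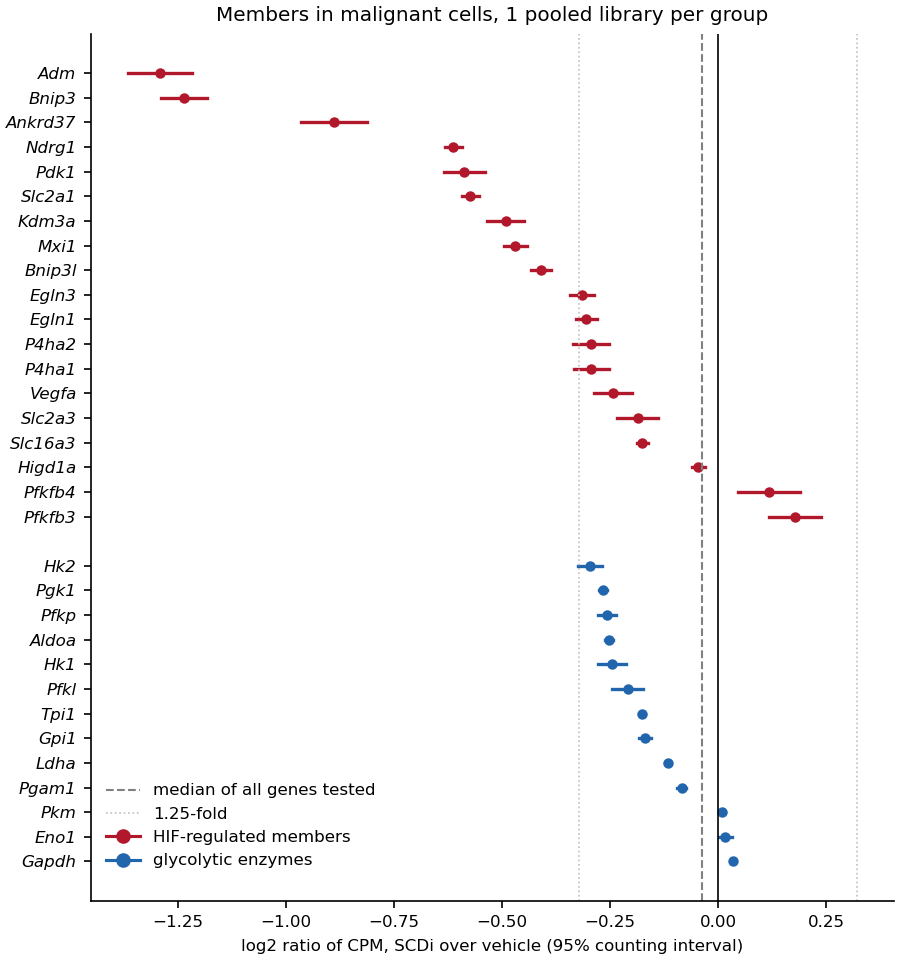
Log2 ratio of CPM (SCDi over vehicle, horizontal axis) for each member that reached 5 CPM in malignant cells (vertical axis), HIF-regulated genes in red and enzymes in blue, with bars for the 95% counting interval, a dashed line at the median of all genes compared and dotted lines at the limit (20% lower, 25% higher). Adm, Bnip3 and Ankrd37 lie farthest to the left, while the enzymes lie between -0.30 (Hk2) and 0.03 (Gapdh).

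Oxygen sensors themselves are HIF targets and form a feedback loop. Egln3, the prolyl hydroxylase that is most inducible by hypoxia, was counted 21514 times in vehicle (71.2 CPM) and 18612 times in SCDi (57.2 CPM), a log2 ratio of -0.32 (-0.34 to -0.29). Egln1, the main sensor in most cells, stood at 102 and 82.8 CPM (-0.31, -0.33 to -0.28). Both lay below the median of all genes, though neither was past the limit. The mRNA of the sensing machinery itself differed less. Hif1a, the alpha subunit whose protein oxygen controls, stood at 215 and 209 CPM (-0.05, -0.06 to -0.03). Its partner Arnt was at -0.15, Vhl, which recognises the hydroxylated subunit, at 0.00, and the third prolyl hydroxylase Egln2 at 0.19. The ubiquitin ligase parts that work with Vhl lay at -0.06 (Cul2), -0.01 (Elob), 0.04 (Eloc) and 0.14 (Rbx1). Hif1an, which hydroxylates the activation domain, stood at 9.75 and 8.34 CPM (-0.23), and Cited2, which competes with HIF for its coactivator, at 86.2 and 72.6 CPM (-0.25). Epas1 (HIF-2alpha), Hif3a and Arnt2 were nearly absent, with 17 to 68 UMIs per library. Of the 13 machinery genes 10 were compared, 6 of them lower (58.4% of all genes), with a median of -0.03. Past the limit were 0, where 6.57% of all genes were lower and 3.41% higher past it.

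The largest differences among the members were those of Adm, which encodes a secreted peptide, and Bnip3, a gene of mitophagy. Bnip3 (gene body at chromosome 7, 138890836 to 138909519, minus strand of mm10), a receptor on the outer mitochondrial membrane that marks mitochondria for autophagy, was counted 9128 times in vehicle (30.2 CPM) and 4173 times in SCDi (12.8 CPM), a log2 ratio of -1.24 (-1.29 to -1.18). Its relative Bnip3l (also called Nix) stood at 107 and 80.9 CPM (-0.41, -0.43 to -0.39). Adm (chromosome 7, 110627661 to 110629820, plus strand), the vasodilator peptide adrenomedullin, was counted 4827 and 2122 times (16.0 and 6.52 CPM), a log2 ratio of -1.29 (-1.37 to -1.22). The other secreted member, Vegfa, the main growth factor of blood vessels, differed much less at 30.4 and 25.7 CPM (-0.24, -0.29 to -0.20). Ankrd37, a small ankyrin-repeat protein much used as a hypoxia marker, stood at 12.8 and 6.92 CPM (-0.89, -0.96 to -0.81). In these 3 genes (Adm, Bnip3, Ankrd37) the vehicle level was 1.85 to 2.45 times the SCDi level. The mitochondrial members were not alike. Pdk1, a kinase that inhibits pyruvate dehydrogenase, stood at 28.9 and 19.2 CPM (-0.59, -0.63 to -0.54). Higd1a, a respiratory chain assembly factor, stood at 223 and 216 CPM (-0.05, -0.06 to -0.03), near the median of all genes.

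Transport and flux control were also split. Slc2a1 (GLUT1), the glucose carrier that HIF controls in most tissues, stood at 162 and 109 CPM (-0.57, -0.59 to -0.55). Slc2a3 (GLUT3), the high-affinity carrier, stood at 24.0 and 21.1 CPM (-0.19, -0.23 to -0.14), and the lactate exporter Slc16a3 (MCT4) at 376 and 333 CPM (-0.18, -0.19 to -0.16). All 3 carriers were lower, GLUT1 alone among them past the limit. The other lactate carrier Slc16a1 (MCT1), which is no member, stood at 51.7 and 57.6 CPM (0.16). Pfkfb3 and Pfkfb4, which make the fructose-2,6-bisphosphate that drives phosphofructokinase, were the only HIF-regulated genes above vehicle, at 13.7 and 15.5 CPM (0.18, 0.12 to 0.24) and at 9.76 and 10.6 CPM (0.12, 0.05 to 0.19). In malignant cells without a UMI of Mki67 or Top2a, genes of dividing cells, the Pfkfb3 ratio was -0.07 (-0.29 to 0.15), with an interval that included 0.

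Among the remaining HIF-regulated genes, Ndrg1, a stress-response gene with strong hypoxic induction, stood at 171 and 112 CPM (-0.61, -0.63 to -0.59). Kdm3a, a histone demethylase that uses oxygen, stood at 33.6 and 23.9 CPM (-0.49), and Mxi1, an antagonist of MYC, at 86.2 and 62.3 CPM (-0.47). All 3 were lower past the limit. The collagen prolyl hydroxylases P4ha1 and P4ha2, whose modification stabilises the collagen helix, stood at 34.5 and 28.2 CPM and at 32.6 and 26.6 CPM, with the same ratio of -0.29. Car9, the carbonic anhydrase often stained to mark hypoxia in human tumours, was at 147 and 98 UMIs, or 0.487 and 0.301 CPM (-0.69, -1.08 to -0.31), below the level needed for comparison.

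The enzymes differed less and followed their place in the pathway only loosely. Of the 13 compared, 10 were lower in the SCDi library (58.4% of all genes). Past the limit were 0, where 6.57% of all genes were lower and 3.41% higher past it. The median of the 13 was -0.18, and together they took 10750 and 10273 CPM. In the first steps, the hexokinases Hk2 and Hk1 stood at 77.2 and 62.9 CPM (-0.30, -0.32 to -0.27) and at 51.8 and 43.7 CPM (-0.25, -0.28 to -0.21). The isomerase Gpi1 was at -0.17, and the phosphofructokinases Pfkp and Pfkl were at -0.26 and -0.21. Aldolase A (Aldoa) stood at 639 and 536 CPM (-0.25, -0.26 to -0.24), and Aldoc had 857 and 683 UMIs. The steps after the split into trioses were not alike. Tpi1, the triose isomerase, stood at 1265 and 1120 CPM (-0.18), Gapdh at 4145 and 4246 CPM (0.03), and Pgk1, the first enzyme that makes ATP, at 640 and 532 CPM (-0.27, -0.28 to -0.26). Pgam1 was at -0.08, Eno1 at 213 and 216 CPM (0.02), Pkm at 1155 and 1162 CPM (0.01), and Ldha, which makes lactate, at 1550 and 1429 CPM (-0.12, -0.12 to -0.11). So 3 of the late enzymes (Gapdh, Eno1 and Pkm) were level between the libraries, and their signs reversed when cells were weighted equally or clusters averaged, while Pgk1, between them in the pathway, was among the lowest. Eno1 is close in sequence to the copy Eno1b (1363 and 1194 UMIs), so that reads of the pair may have been divided between them.

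The lists of other HIF targets and other glycolytic genes, which hold no members, gave the same order of medians. Of 48 other HIF targets 47 were found and 28 reached 5 CPM. Of the 28, 23 were lower in the SCDi library (58.4% of all genes) and 10 lower past the limit (6.57%). Their median was -0.19, against -0.04 over all genes compared. The 3 lowest with at least 20 CPM were Plod2, a collagen lysyl hydroxylase, at 20.4 and 11.9 CPM (-0.77), Plin2, the coat protein of lipid droplets, at 114 and 72.6 CPM (-0.65), and Hilpda, an inhibitor of droplet lipolysis, at -0.40. The highest were Hmox1 (0.18), Jmjd6 (0.12) and Sap30 (0.11). Only Loxl2, a collagen cross-linking enzyme, was higher past the limit (3.41% of all genes), at 9.19 and 13.2 CPM (0.52). It is named here because of that value. Of 37 other genes of glycolysis, the pentose phosphate path and pyruvate use, 23 reached 5 CPM. Of the 23, 11 were lower (58.4% of all genes) and 1 lower past the limit (6.57%), the muscle enolase Eno3 (-0.37). Their median was 0.01. Next in that list were Gpd2 (-0.19) and Taldo1 (-0.15) at the low end, and G6pdx (0.20), Slc16a1 (0.16) and Pgd (0.10) at the high end.

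Depth, cell cycle and cluster composition also differed between the tumour libraries. The median depth was 42223 UMIs per malignant cell in vehicle and 37511.5 in SCDi, and Mki67 had a UMI in 41.3% and 53.3% of the cells. Within 4 bins of depth the HIF-regulated median was lower in each, from -0.46 to -0.30, and it was -0.32 both in cells with and in cells without a UMI of Mki67 or Top2a. Malignant cells were then clustered without the genes of any list used here. Clusters were shared unevenly: cluster 3 held 19.1% of the vehicle and 3.52% of the SCDi cells, and 5 clusters had under 50 cells in a library. Of these 5, clusters 8, 10 and 12 held 8.78%, 6.87% and 5.38% of the SCDi cells, against 0.595%, 0.180% and 0.263% of the vehicle cells. Cluster 15 went the other way (0.211% of SCDi, 1.94% of vehicle), and cluster 16 was small in both. Cells of these 5 clusters were not compared within clusters. In the other 12 the HIF-regulated median was lower in each, from -0.56 to -0.17, and the enzyme median in 10, from -0.34 to 0.08.

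**Figure D2:**
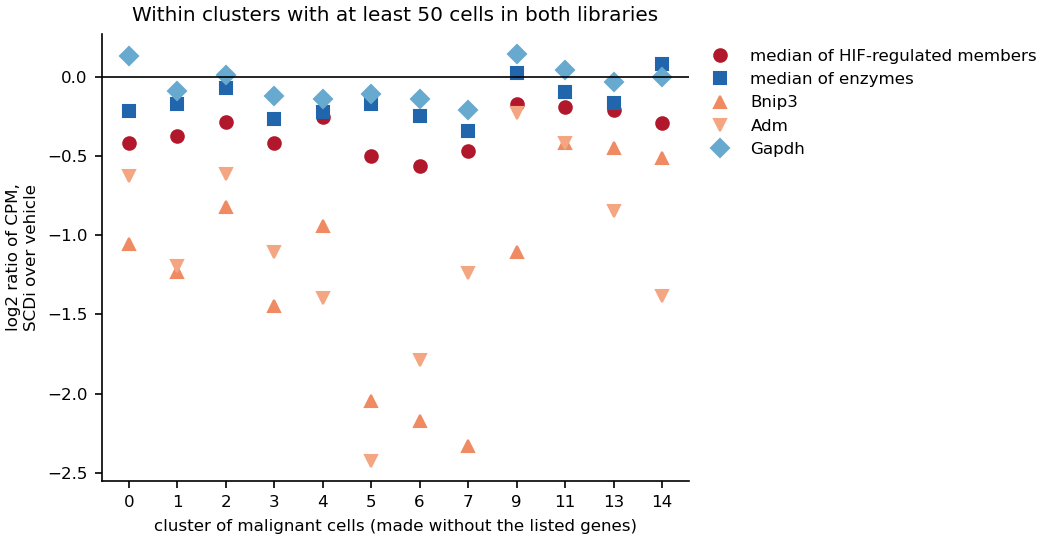
Log2 ratio of CPM (SCDi over vehicle, vertical axis) in each of the 12 malignant clusters that held 50 or more cells per library (horizontal axis), for the median of the HIF-regulated genes, the median of the enzymes, Bnip3, Adm and Gapdh. Bnip3 and Adm lie below 0 in each cluster, Bnip3 lowest in clusters 5, 6 and 7, whereas Gapdh scatters around 0.

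Bnip3 was lower in 12 of 12 clusters, from -2.33 in cluster 7 (25.5 and 5.04 CPM) to -0.42 in cluster 11, and Adm in 12 of 12, from -2.42 in cluster 5 to -0.22 in cluster 9. Counting intervals lay below 0 in 10 of the 12 for each. Ankrd37, Ndrg1, Pdk1, Slc2a1, Bnip3l and Egln1 were also lower in all 12, as were Pfkp and Aldoa among the enzymes. Kdm3a was less even: it was lower in 9 clusters and higher by 1.47 in cluster 5 (8.61 and 24.2 CPM, interval 0.55 to 2.49), and its mean over clusters was -0.11 where the sum over cells gave -0.49. Pfkfb3 was lower in 4 of 12 and Pfkfb4 in 5 of 12. The median over the genes of each chromosome ran from -0.11 (chromosome 8) to 0.04 (chromosome 15). With each member's chromosome median taken off, the HIF-regulated median was -0.29 and the enzyme median -0.18.

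Per-cell counts showed whether few or many malignant cells carried the difference. Each cell was thinned at random to 10000 UMIs, which left out 715 vehicle and 922 SCDi cells of lower depth, and the UMIs of the 20 HIF-regulated genes were summed. The mean was 15.5 (SD 6.62 over 6512 cells) in vehicle and 12.3 (SD 4.95 over 7602 cells) in SCDi, and the median 15 and 12. The upper end was farther apart than the middle: the 90th percentile was 24 and 18, the 99th 37 and 28. At least 25 such UMIs were found in 8.66% of vehicle cells (exact binomial interval 7.99 to 9.37) and in 2.08% of SCDi cells (1.77 to 2.42). The middle and the upper tail of the distribution were thus both lower in the SCDi library. For the 14 enzymes the means were 107 and 99.6 UMIs, with medians of 103 and 96.

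**Figure D3:**
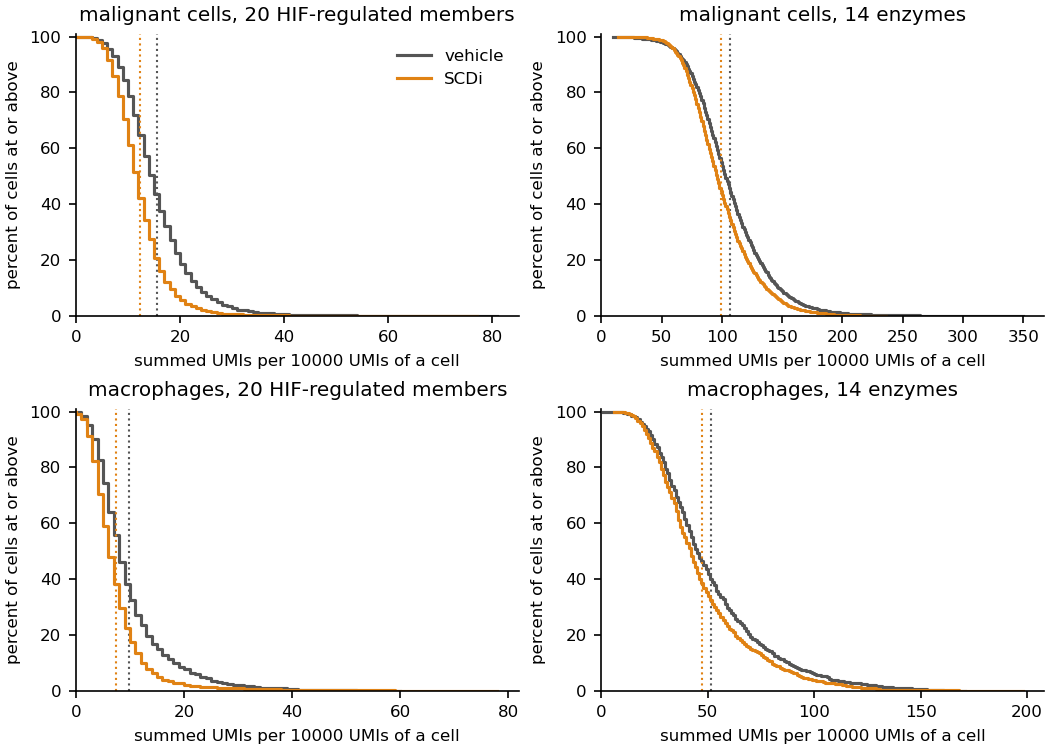
Percent of cells (vertical axis) with at least the given summed UMIs after thinning to 10000 UMIs (horizontal axis), for HIF-regulated genes (left) and enzymes (right) in malignant cells (top) and macrophages (bottom), with vehicle in grey, SCDi in orange and dotted lines at the means. The SCDi curve lies left of vehicle over most of each panel, with a wider gap for HIF-regulated genes (means 15.5 and 12.3 in malignant cells) than for enzymes (107 and 99.6).

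Single genes were sparse at equal depth. Thinned to 2000 UMIs per cell, Bnip3 had a UMI in 5.09% of vehicle and 2.16% of SCDi malignant cells (50.6% and 27.8% unthinned), and Adm in 3.08% and 1.34% (28.2% and 15.9% unthinned). B cells, which should hold little of either, gave 2 of 103 and 0 of 98 cells for Bnip3 and 0 of 103 and 2 of 98 for Adm when thinned, at median depths of 6747 and 6393 UMIs against 42223 and 37511.5 in malignant cells. For both genes, the malignant share of each treatment lies within the counting interval of the B cell share of the same treatment. The difference between the libraries is therefore read from the CPM above. Ndrg1, at 27.4% and 18.3%, lay clear of the B cell shares (0 of 103 and 1 of 98).

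Enzymes differed in how they went with the HIF-regulated genes from cell to cell. In each library malignant cells were ranked by their HIF-regulated sum, and the top 10% (mean 29.3 UMIs in vehicle, 22.4 in SCDi) was set beside the bottom 10% (6.41 and 5.43), values that the ranking itself fixes. Gapdh was only 1.19 times (vehicle) and 1.18 times (SCDi) as high in the top 10%, and Eno1 1.42 and 1.43 times. Ldha was 1.84 and 1.59 times as high, Tpi1 1.78 and 1.51 times, and Pfkl 2.68 and 1.98 times. In vehicle malignant cells the correlation of a gene with the sum of the other HIF-regulated genes was 0.36 for Ldha, 0.32 for Tpi1, 0.30 for Slc2a1 and 0.29 for Bnip3, over 6512 cells at equal depth. It was 0.09 for Gapdh, 0.00 for Slc2a3 and -0.01 for Pfkfb3. These are descriptions of 1 library, and in counts this sparse a weak correlation is no finding.

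Among the leukocytes, macrophages had the lowest HIF-regulated median. They were gated by complement C1q and other macrophage genes (1796 vehicle and 1760 SCDi cells). Of the 20 HIF-regulated genes 16 passed 5 CPM, 14 of these were lower in the SCDi library, and 11 past the limit. Of all 9253 genes compared, 52.6% were lower at all, 9.03% lower past the limit and 4.07% higher past it, the last of which held 0 of the 16. Their median was -0.42, against -0.01 over all genes, and their sum 947 and 724 CPM. Of 13 enzymes 11 were lower, 2 of them past the limit, with a median of -0.13.

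Vegfa, which macrophages release to recruit vessels, was counted 1029 times in vehicle (30.3 CPM) and 446 times in SCDi (11.7 CPM), a log2 ratio of -1.37 (-1.54 to -1.21). In malignant cells the same gene had a ratio of -0.24. Mxi1 stood at 149 and 90.5 CPM (-0.72, -0.79 to -0.66), Ankrd37 at 8.31 and 3.86 CPM (-1.10, -1.40 to -0.81), and P4ha1 at 99.5 and 69.0 CPM (-0.53, -0.60 to -0.45). Pdk1 (-0.61), Bnip3 (-0.54), Slc16a3 (-0.45), Slc2a1 (-0.43), Egln1 (-0.42), Kdm3a (-0.34) and Pfkfb3 (-0.33) made up the rest of the 11. Pfkfb3 was thus below vehicle in macrophages and above it in malignant cells. Higd1a stood at 103 and 110 CPM (0.11) and Car9 at 6.75 and 7.98 CPM (0.24, -0.01 to 0.50), the 2 HIF-regulated genes that were not lower. Adm, P4ha2, Slc2a3 and Egln3 stayed under 5 CPM, Egln3 with 104 and 32 UMIs.

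Among macrophage enzymes, Tpi1 stood at 370 and 281 CPM (-0.40, -0.44 to -0.36) and Pgk1 at 258 and 195 CPM (-0.40, -0.44 to -0.35), followed by Aldoa at 619 and 502 CPM (-0.30). Eno1 went the other way, at 156 and 184 CPM (0.24, 0.19 to 0.29), and Pkm (0.03) and Gapdh (-0.08) lay near 0. Hif1a itself stood at 224 and 162 CPM (-0.47, -0.52 to -0.42), where malignant cells had -0.05, a difference that was not tested. Hilpda stood at 80.8 and 27.7 CPM (-1.54, -1.65 to -1.44) and Cited2 at 67.4 and 90.5 CPM (0.42). Per cell at 10000 UMIs, the HIF-regulated sum had means of 9.83 and 7.35 and a 90th percentile of 19 and 12. At least 25 UMIs were found in 4.46% of vehicle (3.47 to 5.64) and 1.30% of SCDi macrophages (0.794 to 2.00).

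Markers and depth of the macrophages differed between the libraries as well, and their part in the result was not tested beyond the splits given here. The 8 monocyte markers summed to 1459 CPM in vehicle and 1840 CPM in SCDi macrophages, all detected in both, and the 9 macrophage markers to 24514 and 21642 CPM. The HIF-regulated median was -0.52 in macrophages with 0 to 3 monocyte markers (1044 and 941 cells) and -0.34 in those with more (752 and 819 cells), a split chosen after seeing the data. Median depths were 17219.5 and 19944 UMIs, and within 3 bins of depth the HIF-regulated median ran from -0.36 to -0.32 and Vegfa from -1.97 to -1.13. The 6 epithelial tumour markers summed to 0.147 and 0.0787 CPM, all of it Krt7; Krt8 and Krt18 were at 0 because barcodes with either were left out, and Krt19, Cldn4 and Cldn7 were at 0 in both libraries.

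Cells with both macrophage and monocyte markers (732 and 881 cells) gave a like but smaller difference. Of 15 HIF-regulated genes compared, 14 were lower (52.7% of all genes) and 7 past the limit (9.29%), with 0 higher past it (4.96%) and a median of -0.32 against -0.01. Ankrd37 stood at 13.6 and 8.16 CPM, Vegfa at 22.2 and 13.7 CPM (-0.70, -0.91 to -0.48) and Pfkfb3 at 80.5 and 59.7 CPM (-0.43, -0.54 to -0.33). In monocytes (961 and 1033 cells) 12 of 15 were lower (51.3% of all genes), 0 were higher past the limit (6.9%) and Ankrd37 alone was lower past it (7.7%), at 13.5 and 8.43 CPM (-0.67). The monocyte median was -0.14. Monocyte Vegfa, at 18.3 and 16.0 CPM (-0.20, -0.46 to 0.05), was not separable from equality by counting error. The HIF-regulated medians were thus -0.42, -0.32 and -0.14 in macrophages, intermediates and monocytes, and the difference between these types was not tested.

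Microglia, the resident macrophages of brain (314 and 411 cells), had 14 HIF-regulated genes above 5 CPM, 12 lower (55.8% of all genes), 4 of them past the limit (10.2%), with a median of -0.15 against -0.03. Ndrg1 stood at 25.2 and 7.68 CPM (207 and 73 UMIs, -1.71, -2.12 to -1.32), Mxi1 at 161 and 123 CPM (-0.40), Slc2a1 at 66.6 and 52.5 CPM (-0.34) and Pfkfb3 at 165 and 130 CPM (-0.34). Bnip3l, Slc16a3, P4ha1 and Pdk1 lay between -0.03 and 0.01. The enzymes Pfkp (-0.78), Hk1 (-0.62), Tpi1 (-0.33) and Aldoc (62 and 51 UMIs, -0.49) were lower past the limit, and Eno1 (0.48) was higher past it (6.29% of all genes). Ccr7, a marker of migratory dendritic cells, the type with the highest Ndrg1, stood at 10.2 CPM in vehicle microglia (8.92% of cells) and 0.947 CPM in SCDi microglia (2.19%), and its part in the Ndrg1 value was not tested. Median depths were 20128.5 and 15122 UMIs.

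In T cells (286 and 177 cells) the 2 groups of genes had medians of opposite sign in the summed counts, but the enzyme sign depended on the weighting of cells. Of 14 HIF-regulated genes 11 were lower (53.7% of all genes) and 4 past the limit, though 19.7% of all genes were lower past it in so few cells. Their median was -0.18, against -0.03 over all genes. Ndrg1 (48.3 and 32.1 CPM), Mxi1 (132 and 95.4 CPM), Slc2a1 (42.4 and 32.5 CPM) and Egln3 (7.71 and 5.90 CPM) were those 4. The enzymes had a median of 0.20, with 4 of 13 lower and 2 higher past the limit (17.1% of all genes). The medians of their lower and upper counting limits were -0.06 and 0.31. Eno1 stood at 147 and 233 CPM (0.66, 0.51 to 0.82), Pgam1 at 168 and 212 CPM (0.33, 0.18 to 0.49) and Ldha at 673 and 789 CPM (0.23, 0.15 to 0.31). When each cell was given equal weight the T cell enzyme median was -0.08.

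The other 6 types held 52 to 408 cells per library. The HIF-regulated median was -0.16 in migratory dendritic cells, where 2 of 12 were lower past the limit (16.1% of all genes) and 1 higher (11.4%). It was -0.06 in NK cells, with 5 of 15 lower (20.4%) and 4 higher (20.6%), and -0.02 in B cells, with 4 of 13 lower (25.7%) and 5 higher (23.2%). In type 2 dendritic cells it was 0.32, with 2 of 15 lower (17.4%) and 7 higher (23.8%). In plasmacytoid dendritic cells it was 0.27, with 2 of 14 lower (22.2%) and 7 higher (19.7%), and in neutrophils 0.10, with 6 of 17 lower (41.8%) and 7 higher (31.1%). Across the processing alternatives it ran from -0.14 to 0.28 in plasmacytoid dendritic cells, from -0.34 to 0.35 in neutrophils and from -0.36 to 0.07 in B cells. The sign of the median thus changed with the processing in these 3 types. In all 6 types the medians of the genes' lower and upper counting limits lay on either side of 0. The same held in microglia (-0.37 and 0.08), monocytes (-0.31 and 0.05) and T cells (-0.56 and 0.22). These limits describe single genes and form no interval for the list median, whose sign is not settled in any of these types.

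Some members in these small types still lay outside counting error. In migratory dendritic cells Ndrg1 stood at 315 and 254 CPM (-0.31, -0.43 to -0.19), Gapdh at 894 and 719 CPM (-0.31, -0.39 to -0.25) and Pgk1 at 97.8 and 73.2 CPM (-0.42, -0.64 to -0.20). Their enzymes had a median of -0.21, against -0.05 over all genes. Type 2 dendritic cells went the other way for Ndrg1, at 42.4 and 78.1 CPM (0.88, 0.53 to 1.23), and for Slc2a1, at 60.8 and 80.9 CPM (0.41, 0.10 to 0.73). Ccr7 moved with them, at 45.2 CPM in vehicle and 110 CPM in SCDi type 2 dendritic cells (13.5% and 13.9% of cells), and its part in the result was not tested. NK cells had more Ndrg1 too, at 40.0 and 71.3 CPM (0.83, 0.38 to 1.30). In neutrophils the enzyme median was -0.48 against -0.14 over all genes, and 9 of 13 enzymes were lower past the limit (41.8% of all genes). The interval lay below 0 for 6 of the 13 and above 0 for 1. Below 0 were Tpi1 at 119 and 21 UMIs (-1.39, -2.16 to -0.74) and Pfkp at 134 and 25 UMIs (-1.31, -2.01 to -0.71), among others. The carriers Slc16a3 (151 and 127 UMIs, 0.84) and Slc2a3 (64 and 57 UMIs, 0.92) were higher per UMI sequenced. The neutrophils numbered 82 and 52 cells, with 595412 and 280469 UMIs in all. The granulocyte marker S100a8 stood at 11987 and 36610 CPM in them, and the macrophage marker C1qa at 42.0 and 150 CPM (20.7% and 46.2% of cells). The part of these differences in the neutrophil values was not tested.

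Bnip3 and Slc2a1, followed through every type, show where the differences were found. Bnip3 was lower with its interval below 0 in malignant cells (-1.24), macrophages (-0.54), intermediates (39.4 and 32.4 CPM, -0.28) and NK cells (20 and 5 UMIs, -1.47). It was level in monocytes (25.1 and 24.1 CPM, -0.06), and the interval also included 0 in the 7 remaining types, among them microglia (-0.30) and T cells (0.16). Slc2a1 was lower with its interval below 0 in malignant cells, macrophages, intermediates (-0.32), monocytes (-0.30), microglia (-0.34) and T cells (-0.38), and higher in type 2 dendritic cells and B cells (22 and 46 UMIs, 1.03). Egln3 had few counts in macrophages (104 and 32 UMIs), intermediates (90 and 50), monocytes (60 and 20) and microglia (34 and 13). Its interval lay below 0 in these 4 types, but in each it stayed under the 5 CPM needed for comparison. Neutrophils held more Egln3 per UMI, at 45.3 and 35.7 CPM (27 and 10 UMIs, -0.30, -1.56 to 0.75), with an interval that included 0.

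**Figure D4:**
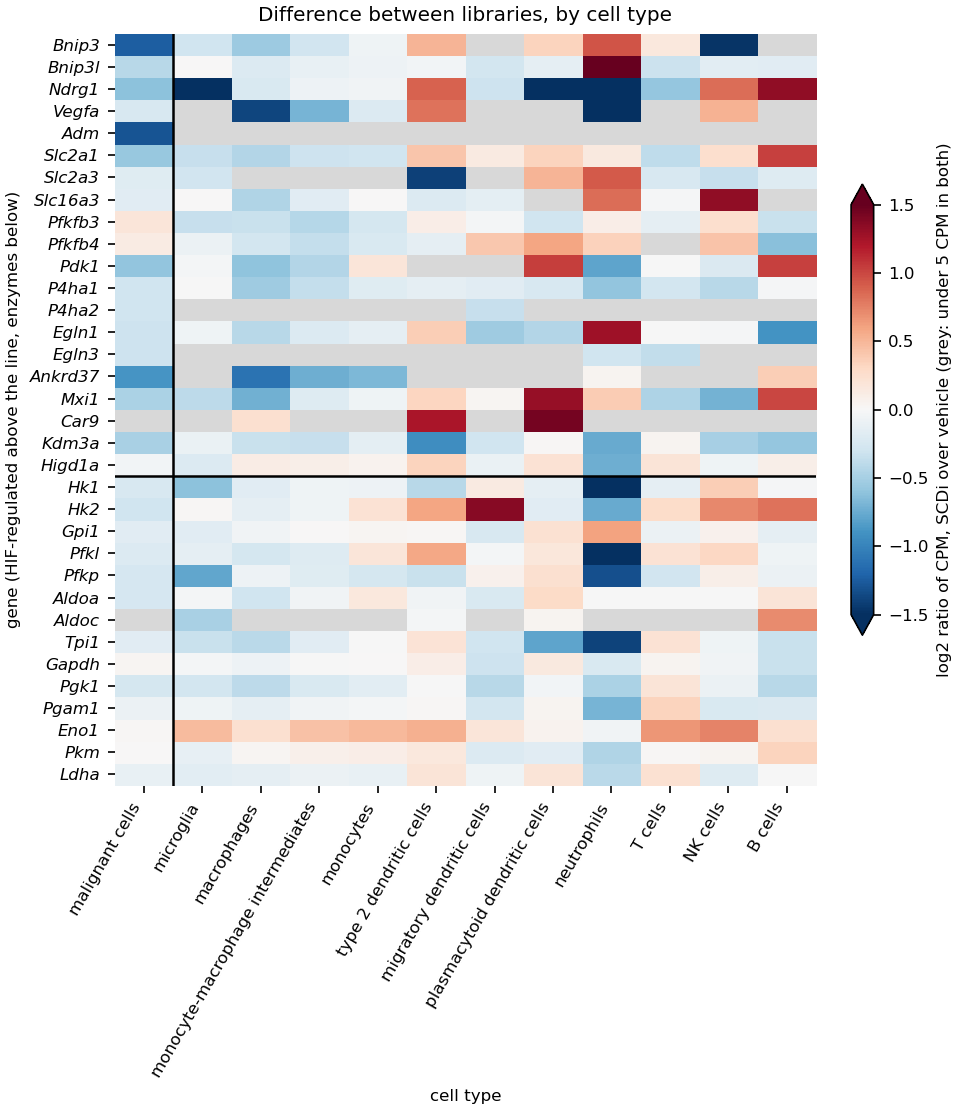
Log2 ratio of CPM (SCDi over vehicle, colour) of each member (vertical axis) in each cell type (horizontal axis), grey where a gene has under 5 CPM in both libraries. Blue prevails among HIF-regulated genes (upper block) in malignant cells, macrophages and intermediates, and the row of Eno1 is red in most leukocyte types, from 0.24 in macrophages to 0.75 in NK cells where its interval lies above 0.

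Eno1, the enolase of most tissues, was higher in the SCDi library with its interval above 0 in the following types: macrophages (0.24), intermediates (0.44), microglia (0.48), monocytes (0.49), type 2 dendritic cells (0.53), T cells (0.66) and NK cells (0.75). The interval included 0 in migratory dendritic cells, plasmacytoid dendritic cells, neutrophils and B cells, and malignant cells stood at 0.02. Of the neighbouring enzymes, in macrophages Pgam1 was at -0.13 and Pkm at 0.03. The copy Eno1b had 229 and 146 UMIs in macrophages, where Eno1 had 5286 and 7017.

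Levels of each gene across cell types in the vehicle libraries give the background to these differences, and since 3' counts depend on each transcript's end, a gene is compared with itself only. Malignant cells, read from another library than the leukocytes, had the highest level of 6 of the 20 HIF-regulated genes (Adm, Slc16a3, P4ha2, Egln1, Egln3 and Higd1a) and of 8 of the 14 enzymes (Gpi1, Aldoa, Tpi1, Gapdh, Pgk1, Pgam1, Eno1 and Ldha). In SCDi these counts were 5 and 6. Tpi1 stood at 1265 CPM in malignant cells and 370 CPM in macrophages, the next type, Ldha at 1550 CPM against 673 CPM in T cells, and Gapdh at 4145 CPM against 1524 CPM in macrophages. Adm was nearly limited to malignant cells, at 16.0 CPM against at most 1.68 CPM in a leukocyte type.

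**Figure D5:**
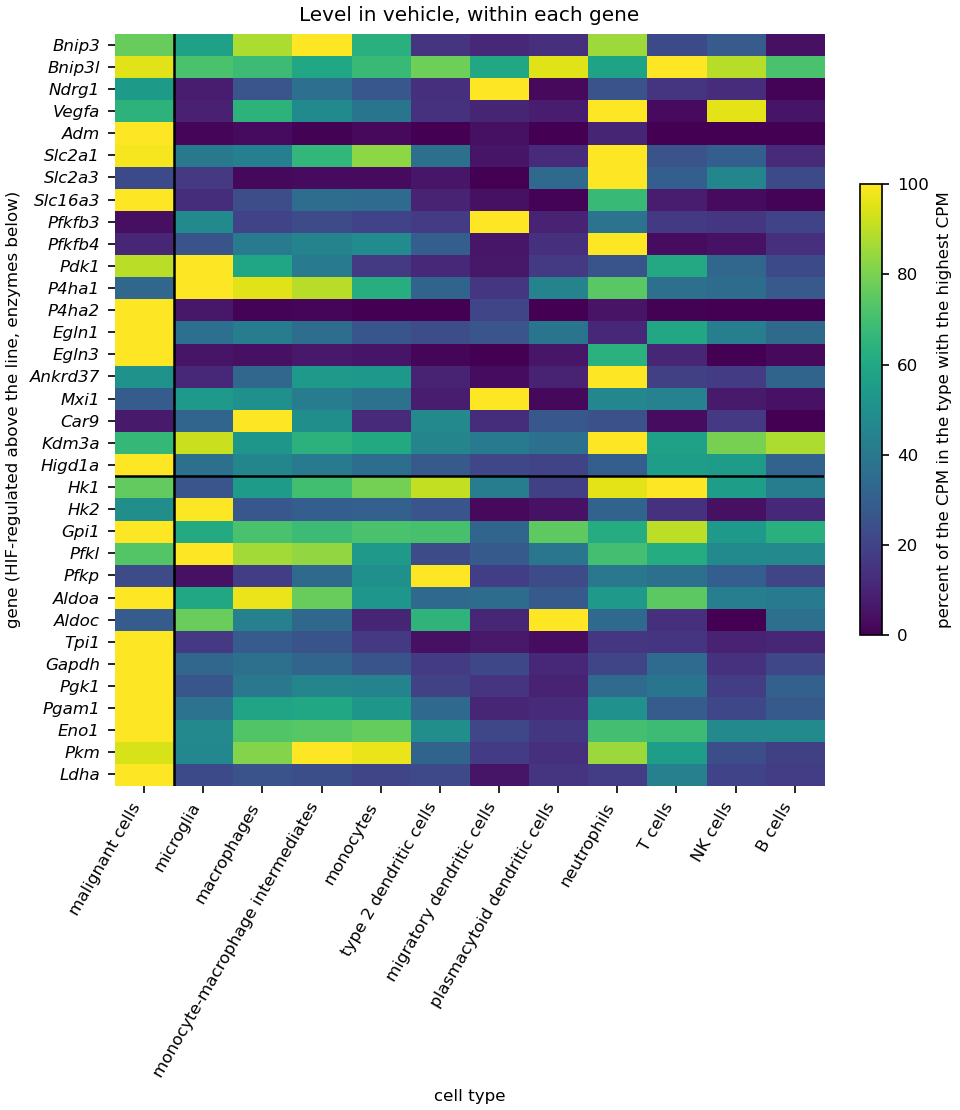
Level of each member (vertical axis) in each cell type of the vehicle libraries (horizontal axis) as a percent of its CPM in the type where it is highest (colour). Malignant cells lead most glycolytic enzymes (lower block), and neutrophils, migratory dendritic cells and microglia lead several HIF-regulated genes (upper block), with Pfkfb3 at 344 CPM in migratory dendritic cells and 13.7 CPM in malignant cells.

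Several HIF-regulated genes belonged to leukocytes instead. Pfkfb3 was lowest in malignant cells (13.7 CPM) and highest in migratory dendritic cells (344 CPM) and microglia (165 CPM), with a median of 69.4 CPM over the 11 leukocyte types. Neutrophils (82 cells) were highest in vehicle for Slc2a3 at 107 CPM and Pfkfb4 at 90.7 CPM. Vegfa stood at 47.0 CPM in vehicle neutrophils (28 UMIs) and 45.0 CPM in vehicle NK cells, which did not differ beyond counting error, and in SCDi it was highest in NK cells at 64.5 CPM, with 3 UMIs in neutrophils. The neutrophil Slc2a1 level of 165 CPM (134 to 201) did not differ beyond counting error from the 162 CPM of malignant cells. Migratory dendritic cells led for Ndrg1 (315 CPM) and Mxi1 (298 CPM), and microglia for Hk2 (156 CPM), P4ha1 (104 CPM) and Pdk1 (32.3 CPM). Pfkp, the platelet-type phosphofructokinase, reached 560 CPM in type 2 dendritic cells against 127 CPM in malignant cells, and Car9 reached 6.75 CPM in macrophages, above its 0.487 CPM in the tumour cells.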

How the data were processed

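Single-cell 3' RNA was measured in 4 libraries (vehicle and SCDi, tumour and immune sort). The authors deposited unnormalised UMI counts for each barcode, made with Cell Ranger 7.1.0 on mm10 per the submitters' processing notes, and the labels' protocols name R studio 1.3.1073 and Seurat 4.1.1 for later steps. The annotation and the treatment of introns were not given in the sources used here.

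Barcodes with at least 300 genes and at most 15% mitochondrial UMIs were kept (6959, 7453, 6453 and 8895 in the vehicle immune, vehicle tumour, SCDi immune and SCDi tumour libraries, with lowest depths of 500 to 503 UMIs before the filter). Malignant cells had a UMI of Krt8, under 2 of 5 leukocyte and under 4 of 6 endothelial markers. Leukocyte types needed a set number of their markers with a UMI, such as 6 of 9 for macrophages, 6 of 8 for monocytes (both for intermediates), 6 of 8 for microglia and 5 of 8 for T cells, and these numbers were chosen after marker detection was seen. Immune barcodes with markers of 2 lineages or a UMI of Krt8 or Krt18 were left out (833 and 765), as were those outside any gate (968 and 683 immune, 226 and 371 tumour) and types with under 50 cells or 100000 UMIs in a library. No doublet caller was run.

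UMIs were summed per type, scaled to CPM and compared as a log2 ratio with 0.5 counts added, with the exact conditional binomial 95% interval. Levels have exact Poisson and shares exact Clopper-Pearson intervals, and all cover counting error only. Genes that reached 5 CPM in vehicle or SCDi were compared, and at least 20% lower or 25% higher was the limit for counts. Calculations used Python 3.11.15 with scipy 1.17.1 and scanpy 1.11.5, and the ratio was checked on simulated counts. Clusters were made with leidenalg 0.10.2. Gene positions came from GENCODE M21, and promoter windows from RefSeq on GRCm38.p6, the assembly of mm10. Named were all members, every gene of the sensing machinery, and the 3 highest and 3 lowest of each other list at 20 CPM in malignant cells, with macrophage values of some of these and of Eno1b beside them. The members, lists and limits were chosen with earlier results of these data known. Alternatives were other barcode filters, gates, scalings, counts added and CPM limits, cell subsets, and thinning to 1000, 2000 or 5000 UMIs. Thinning to 10000 UMIs and the split of macrophages by monocyte markers were added after seeing the data.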

Additional observations from a re-analysis of the deposited data

Results flagged for a closer look

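Some members were at least 25% higher in one cell type and at least 20% lower in another, each with its counting interval on that side of 0. The log2 ratio of Bnip3l was 1.58 in neutrophils and -0.41 in malignant cells, that of Slc2a1 was 1.03 in B cells and -0.57 in malignant cells, that of Slc16a3 was 1.33 in NK cells and -0.45 in macrophages, and that of Mxi1 was 1.30 in plasmacytoid dendritic cells and -0.72 in macrophages. Between leukocyte types, Ndrg1 stood at 0.88 in type 2 and -2.10 in plasmacytoid dendritic cells, Vegfa at 0.52 in NK cells and -1.94 in neutrophils, Slc2a3 at 0.92 in neutrophils and -1.40 in type 2 dendritic cells, Pgam1 at 0.33 in T cells and -0.69 in neutrophils, and Pkm at 0.34 in B cells and -0.45 in neutrophils. None of these differences between cell types was tested. The types with the higher value held few cells (52 to 286 per library), and several rest on few UMIs: Vegfa in neutrophils on 28 and 3, Ndrg1 in plasmacytoid dendritic cells on 13 and 2.

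The second row with the symbol Aldoa, used in no comparison, held 73 UMIs in vehicle malignant cells.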

How the results depend on the processing

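In malignant cells the HIF-regulated median kept its sign under every alternative run, from -0.36 (each cell's CPM weighted equally, or no CPM limit) to -0.29, and its count lower by at least 20% ran from 7 to 12. Without cells holding Mki67 or Top2a UMIs, 1 HIF-regulated gene was at least 25% higher. The enzyme median was -0.20 without the 5% deepest barcodes, -0.15 with median-of-ratios scaling, -0.22 with equal cell weights, -0.19 with no CPM limit, -0.19 without Mki67 or Top2a cells, -0.18 as a mean over depth bins and -0.16 over clusters. The enzyme count lower by at least 20% was 1 with equal cell weights and 1 with no CPM limit. The enzymes near 0 changed sign: Gapdh to -0.0015, -0.019, -0.050 and -0.040 (without the deepest barcodes, with equal cell weights, without Mki67 or Top2a cells, over clusters), Pkm to -0.022, -0.041, -0.014 and -0.052 in the same order, and Eno1 to -0.019, -0.034, -0.018 and -0.047 (equal cell weights, without Mki67 or Top2a cells, over depth bins, over clusters). Pfkfb3 was -0.068 without Mki67 or Top2a cells. In T cells the enzyme median was -0.076 with equal cell weights. The cause of these was not tested. Thinning to 1000, 5000 or 10000 UMIs left the ratio of mean HIF-regulated UMIs at -0.34 to -0.35, against -0.36 at 2000. Requiring 1 more marker left under 50 type 2 dendritic cells or neutrophils, so that setting was not run there. The sign was kept in 261 of 274 list values and 371 of 384 single-gene values under the alternatives. No paired analysis was possible because each group is 1 library and no replicates exist. With 1 library per group, neither depth nor the intervals speak to variation between mice, and types under 100 cells leave wide intervals.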
